A study of Mus musculus with 6 samples.

Results

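DNA replication and S phase genes, the genes whose products license replication origins, open the helix, copy the strands and supply the nucleotides, were read on 6 expression arrays of mouse CD4+YFP+ T cells. Of 42 genes in the list, 41 had a probe set carrying only that gene's symbol in the platform annotation, and for each gene the probe set with the highest mean log2 intensity over the 6 arrays stood for it. Chaf1a had no such probe set and was not measured. These 41 genes stand among 13279 genes and 29507 probe sets tested. All 41 read above the median intensity of every array, so none entered the test through 1 group alone.

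The 3 KO arrays, A, B and C, hold cells of Dicer lox/lox mice, and the 3 Het arrays, also A, B and C, hold cells of Dicer wt/lox mice. Mice of both genotypes carried the FoxP3-GFP-hCre transgene, in which a GFP-Cre fusion is made where Foxp3 is active, and the ROSA26R-YFP reporter. The cells were sorted from lymph nodes by flow cytometry. Cre thus acts in Het cells too, on their single lox copy of Dicer, and YFP marks cells in which Cre has acted, whether or not they still make Foxp3. The labels do not say that the arrays of a group come from separate animals, so the p-values cover the spread between 3 samples of a group, and that spread may be technical alone. Dicer1, which makes the enzyme that matures microRNAs, read 1029, 1053 and 1187 on KO arrays A, B and C, against 1203, 1077 and 1059 on Het arrays A, B and C (log2 difference -0.03, adjusted p = 0.891). Whether its probes fall inside the stretch removed by Cre is unknown, and these values check no genotype label. Foxp3, the lineage factor of regulatory T cells, read 5453, 9417 and 5420 on KO arrays and 9960, 8945 and 9769 on Het arrays, and Cd4 read 5298, 5161 and 6651 on KO arrays and 4694, 5177 and 5809 on Het arrays. Foxp3 and Cd4 were therefore bright on all 6 arrays. Foxp3 read lower on KO A and KO C than on every Het array (log2 difference -0.55, adjusted p = 0.285 by limma).

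Before a cell copies its DNA, the origin recognition complex, Cdc6 and Cdt1 load the Mcm2 to Mcm7 helicase onto origins. Cyclin E with its kinase and further factors then fire the helicase, and polymerases follow it with the PCNA clamp. Most of these genes are transcribed as cells leave rest and enter S phase, largely under E2F factors, so their messenger RNAs are much more abundant in dividing lymphocytes than in resting ones. In bulk samples, fewer cells of a type and less RNA per cell cannot be told apart, and this holds for every value below.

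No replication gene passed the test across all probe sets, but 38 of 41 had a higher mean log2 intensity in KO than in Het cells. The adjusted p-values, from limma, adjusted after Benjamini and Hochberg over all 29507 probe sets tested, ran from 0.084 for Rfc3, a clamp loader subunit, to 0.919 for Dut, the enzyme that removes dUTP. Of all genes tested, 2.33% passed at an adjusted p under 0.05. A positive difference was found for 43.4% of all genes tested, against 92.7% of the replication genes. At an unadjusted p under 0.05, 9 replication genes were higher in KO and 0 were lower, where 10.7% of all genes were higher and 11.6% lower. All 3 KO arrays lay above all 3 Het arrays for 13 of the 41 (31.7%; 13.2% of all genes tested), and below them for 0 (16.8% of all genes tested). The median log2 difference, KO minus Het, was 0.48 over the 41 genes and -0.03 over all genes tested, and single genes ran from -0.12 to 1.65. These counts describe a list that was drawn up with earlier results of the same arrays known. The median was 0.23 without Het A and 0.30 without KO B. The difference of a gene moved by over 1.5 times, in either direction, for 32 of the 41 genes without Het A and for 19 without KO B, and for 5 to 8 without any 1 of the other 4 arrays.

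**Figure D1:**
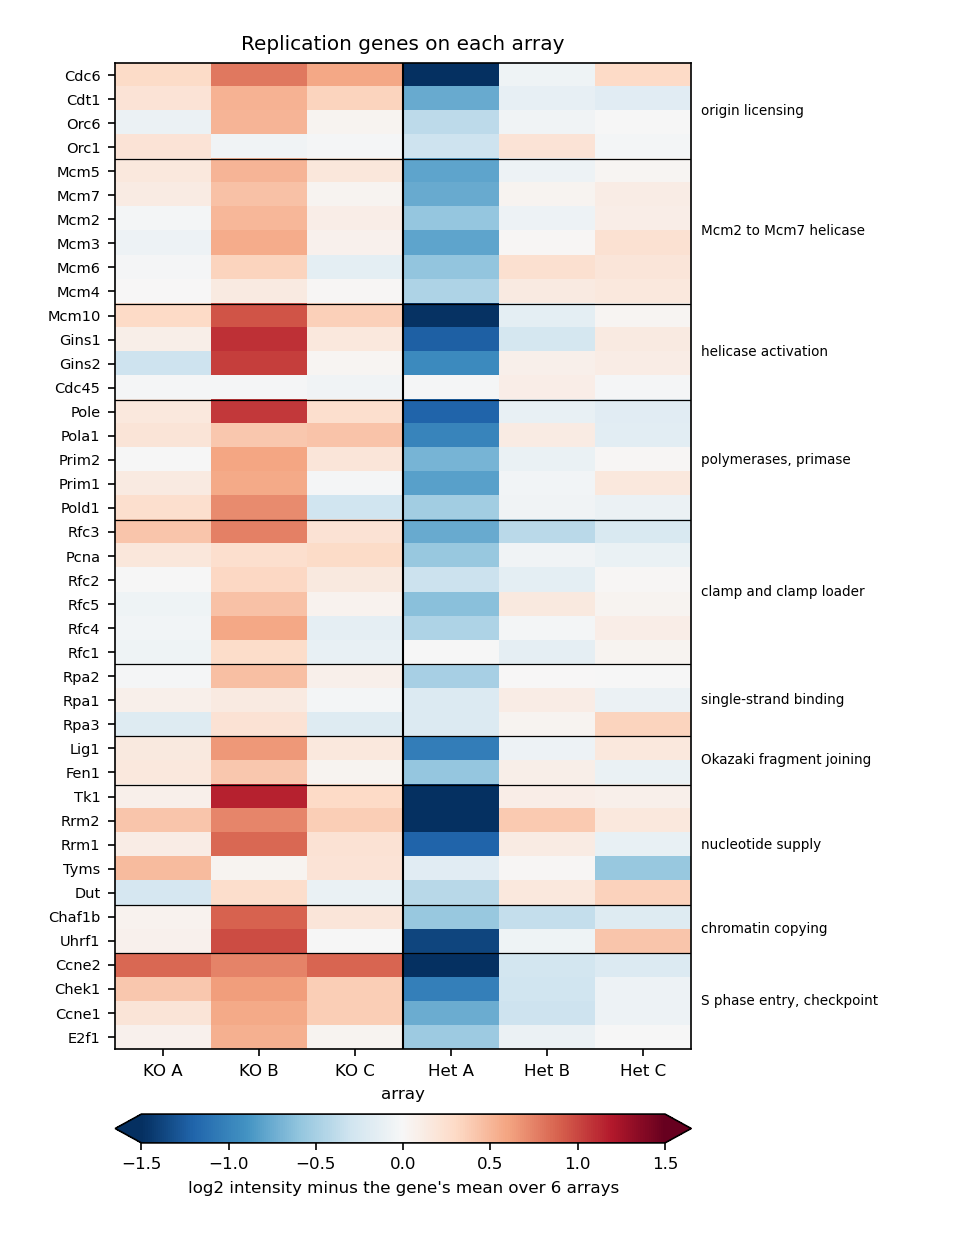
Each row is 1 of the 41 measured replication genes, grouped by role, and each column is 1 array, with the KO arrays left of the Het arrays; colour gives log2 intensity minus the gene's mean over the 6 arrays, cut at the ends of the scale. Het A is the lowest of the 6 arrays for 38 genes and KO B the highest for 32.

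Promoter sequence was set beside these values because many replication genes share E2F sites. RefSeq promoter windows (GRCm38.p6), from 250 bases before the gene start to 50 after it, were on hand for 35 of the 42 genes, and Ccne2, Gins1, Gins2, Mcm4, Pole, Prim2 and Rfc2 had none. An E2F motif of 8 letters, searched on both strands as TTTGGCGC, TTTGCCGC, TTTCGCGC or TTTCCCGC, occurred in 12 of the 35 genes (34.3%). It occurred in 4.56% of the 10712 tested genes with a window, in 2.60% of all 27025 genes with one, in 20 of 55 other replication genes (36.4%) and in 1 of 12 mitosis genes (8.33%). The 7-letter form GCGGGAA occurred in 15 of the 35 genes (42.9%) and in 9.19% of tested genes. Its reverse complement lies within TTTCCCGC, so the counts overlap. Some genes had several windows, and a gene was counted if any of its windows held a match. A match is a run of letters and not a measured binding site. A gene without a match may still have E2F sites, since only these exact letters in these windows were searched. The clamp loader gene Rfc3, with the smallest p among the 41 genes, carries a pair of matches at its start, at -10 and +1, and its window is chr5:151651159-151651458 on the minus strand. Capitals mark the 8-letter matches, on either strand, in every sequence shown here, and in Mcm5 a pair of matches, at -153 and -149, overlaps in 1 run of capitals.
Rfc3: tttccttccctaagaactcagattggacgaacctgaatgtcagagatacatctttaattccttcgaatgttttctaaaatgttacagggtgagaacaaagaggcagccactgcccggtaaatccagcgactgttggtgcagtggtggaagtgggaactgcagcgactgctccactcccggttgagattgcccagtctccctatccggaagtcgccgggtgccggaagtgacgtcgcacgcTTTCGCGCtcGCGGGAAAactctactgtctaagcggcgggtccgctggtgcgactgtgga

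The surroundings of further matches, with 12 bases to each side where the window reaches that far, show the motif in genes of origin licensing (Cdc6, Cdt1, Orc1), of the Mcm helicase (Mcm5, Mcm7), of primer synthesis (Pola1) and of chromatin copying (Uhrf1).
Cdc6: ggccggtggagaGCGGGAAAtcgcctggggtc
Cdt1: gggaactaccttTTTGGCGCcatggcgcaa
Orc1: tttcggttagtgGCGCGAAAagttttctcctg
Mcm5: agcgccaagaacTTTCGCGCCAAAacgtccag
Mcm7: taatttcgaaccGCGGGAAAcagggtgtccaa
Pola1: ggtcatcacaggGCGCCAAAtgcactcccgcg
Uhrf1: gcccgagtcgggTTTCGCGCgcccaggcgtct
These stretches lie at chr11:98908001-98908032 (plus strand, Cdc6), chr8:122568035-122568064 (plus, Cdt1), chr4:108579415-108579446 (plus, Orc1), chr8:75109344-75109375 (plus, Mcm5), chr5:138172029-138172060 (minus, Mcm7), chrX:93632274-93632305 (minus, Pola1) and chr17:56304116-56304147 (plus, Uhrf1). Cyclin E1 (Ccne1), with the smallest p among the genes of S phase control, held neither E2F form in its window, chr7:38107441-38107740 on the minus strand, which is given for contrast.
Ccne1: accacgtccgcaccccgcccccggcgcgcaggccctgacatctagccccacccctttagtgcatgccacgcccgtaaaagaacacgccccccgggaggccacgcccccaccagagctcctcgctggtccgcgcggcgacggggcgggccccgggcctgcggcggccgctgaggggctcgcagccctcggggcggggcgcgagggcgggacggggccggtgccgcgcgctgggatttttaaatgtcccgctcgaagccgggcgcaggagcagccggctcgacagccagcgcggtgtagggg

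The replication genes with either E2F form in the window did not stand clear of the rest. The median log2 difference was 0.60 for the 18 measured genes with a match, all of them positive, and 0.39 for the 16 with none, of which 13 were positive. The 7 genes without a window had a median of 0.52. Mcm6, whose matches are not printed above, held the 8-letter motif at -110, -106 and -47, with a log2 difference of 0.11. Its matches at -110 and -106 overlap, as the pair in Mcm5 does. Mcm3, also not printed, held the motif at +20 and +39, with a log2 difference of 0.36. The 16 without a match include Mcm10 (log2 1.07), Tk1 and Rrm2 (1.02 each), as well as Rpa3, Dut and Cdc45, the 3 genes with a negative difference. The cell cycle homology letters TTTGAA, known from genes expressed in mitosis, occurred in 3 of 35 replication genes (8.57%), in 14.5% of tested genes and in 9 of the 12 mitosis genes (75.0%). The CCAAT box, searched as CCAAT, occurred in 21 of the 35 replication genes and 42.4% of tested genes, and the GC box GGGCGG in 26 of the 35 and 64.4% of tested genes. The TATA box letters TATAAA occurred in 2 of the 35 and in 9.65% of tested genes. All motifs were searched on both strands.

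**Figure D2:**
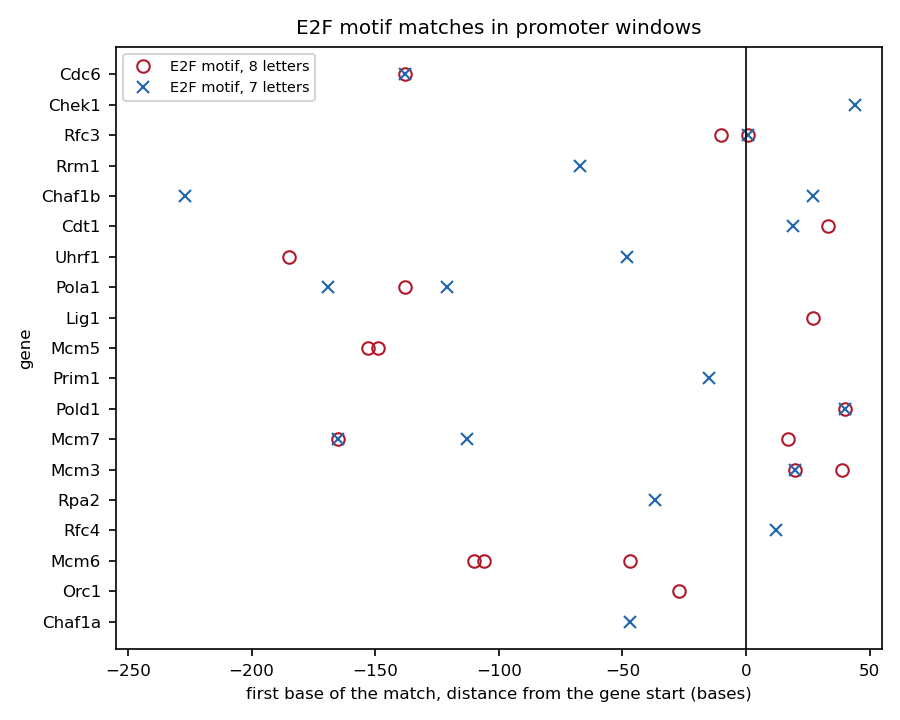
Circles give the first base of each match to the 8-letter E2F motif and crosses that of the 7-letter form, in bases from the gene start, for the 19 replication genes with a match; genes run from the highest KO minus Het difference at the top to the lowest, and Chaf1a, which had no probe set, stands at the bottom. Matches lie both before and after the start, and the pair at the start of Rfc3 is the closest to it.

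Origin licensing genes were all positive, with a median log2 difference of 0.50 over 4 genes and 0 past the test. Cdt1, which brings the helicase to origins, read 3997, 4975 and 4371 on KO arrays A, B and C, against 2052, 3203 and 3087 on Het arrays A, B and C. Its groups did not overlap, the log2 difference was 0.70 ± 0.20 (SE, n = 3 each, here and below) and the adjusted p was 0.147. Cdc6, the ATPase that works with Cdt1, read 1159, 1642 and 1420 on KO arrays, against 253.2, 907.8 and 1168 on Het arrays. Het A stood far below the other 5 arrays there, Het C read above KO A, and the log2 difference of 1.11 ± 0.59 (adjusted p = 0.382) was 0.44 without Het A. By the chosen probe sets the origin recognition subunits differed less, with log2 0.30 for Orc6 and 0.09 for Orc1, and their groups overlapped. Orc1 was -0.044 without Het A, and Orc6 was 0.18 without Het A and 0.13 without KO B. The other probe set of Orc1 read 129.9, 176.6 and 144.2 on KO arrays, against 75.89, 122.2 and 122.2 on Het arrays. Its groups did not overlap (log2 0.52 ± 0.23, adjusted p = 0.302).

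The 6 genes of the Mcm2 to Mcm7 helicase, the ring that opens the double helix, had a median log2 difference of 0.37. By the chosen probe sets only Mcm5 separated the groups. Mcm5 read 24149, 30777 and 24429 on KO arrays, against 12498, 20604 and 22038 on Het arrays (log2 0.56 ± 0.25, adjusted p = 0.296). Mcm2 read 2640, 3787 and 2877 on KO arrays, against 1799, 2546 and 2876 on Het arrays, so that KO C and Het C were nearly equal and KO A lay below Het C (log2 0.38 ± 0.22, adjusted p = 0.437). Mcm7 and Mcm3 gave log2 0.40 and 0.36. Mcm6 and Mcm4 gave 0.11 each, and without Het A they gave -0.16 and -0.091. By the chosen probe sets, the subunits of 1 ring thus spanned -0.16 to 0.30 once Het A was left out. Mcm5 was at the top, with Mcm2 at 0.18, Mcm7 at 0.13 and Mcm3 at 0.060. Without KO B, Mcm2 gave 0.22 and Mcm3 0.18. A second probe set of Mcm4 (log2 0.37, adjusted p = 0.351) and 1 of Mcm3 (log2 0.70, adjusted p = 0.310) also separated the groups. The remaining tested ones of Mcm3 and those of Mcm2, Mcm6 and Mcm7 did not.

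Among the helicase activation genes, Mcm10, a factor that fires the loaded helicase, read 393.3, 617.5 and 411.9 on KO arrays, against 114.4, 289.8 and 325.8 on Het arrays. The groups did not overlap and the log2 difference was 1.07 ± 0.44 (adjusted p = 0.271), or 0.60 without Het A. Gins1, a subunit of the GINS complex that joins the helicase, read 597.5, 1201 and 624.2 on KO arrays, against 240.6, 467.5 and 618.0 on Het arrays (log2 0.90 ± 0.44, adjusted p = 0.346). The lowest KO array, A, lay just below Het C, and the difference was 0.51 without Het A and 0.57 without KO B. Gins2, of the same complex, gave log2 0.51, or 0.16 without Het A and 0.11 without KO B. Cdc45, the remaining partner of the active helicase, read 196.0, 196.0 and 190.7 on KO arrays, against 196.0, 212.8 and 196.0 on Het arrays (log2 -0.05 ± 0.07, adjusted p = 0.755), almost the same value on every array. Its other probe set read 205.1, 348.2 and 221.6 on KO arrays, against 36.76, 177.9 and 207.2 on Het arrays (log2 1.18 ± 0.70, adjusted p = 0.432). The probe sets of Cdc45 disagree, and the rule chose the one that barely varies.

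The genes of polymerases and primase were positive for all 5, with a median of 0.52. Pole, the catalytic subunit of polymerase epsilon, which copies the leading strand, read 646.4, 1204 and 689.3 on KO arrays, against 251.8, 533.9 and 513.0 on Het arrays (log2 0.99 ± 0.39, adjusted p = 0.250). Pola1, the catalytic subunit of polymerase alpha, which extends primers, read 979.1, 1136 and 1159 on KO arrays, against 430.7, 935.7 and 772.3 on Het arrays (log2 0.68 ± 0.30, adjusted p = 0.291). In both genes every KO array lay above every Het array. Prim2 and Prim1, the primase subunits, gave log2 0.52 and 0.46, and Pold1, the catalytic subunit of polymerase delta, gave 0.44. All 3 overlapped between the groups. Without Het A the differences were 0.63 for Pole, 0.36 for Pola1, 0.30 for Prim2, 0.17 for Prim1 and 0.29 for Pold1. Pold1 was 0.20, Prim1 0.29 and Prim2 0.35 without KO B.

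Clamp and clamp loader genes held the smallest p-value among the 41 and also some of the smallest differences. Rfc3, whose start carries the paired E2F letters shown above, read 1502, 1904 and 1307 on KO arrays, against 667.0, 851.1 and 960.1 on Het arrays. The lowest KO array lay well above the highest Het array, and the log2 difference was 0.93 ± 0.20, or 1.90-fold (95% confidence interval of the log2 difference 0.44 to 1.41, adjusted p = 0.084). A second Rfc3 probe set gave the same log2 difference of 0.93, with adjusted p = 0.174. Pcna, the sliding clamp, read 33903, 35898 and 36547 on KO arrays, against 20329, 29035 and 27964 on Het arrays, again with no overlap (log2 0.48 ± 0.15, adjusted p = 0.184), and gave 0.31 without Het A, where Rfc3 gave 0.78. The other loader subunits, which sit in the same complex as Rfc3, gave log2 0.30 for Rfc2, 0.29 for Rfc5, 0.27 for Rfc4 and 0.07 for Rfc1, and all overlapped. Rfc4 and Rfc5 were 0.10 and 0.052 without Het A, and 0.044 and 0.14 without KO B. A test of Rfc3 against its partner subunits was not made. The sign for Rfc1 turned without KO B (-0.058).

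The 3 genes of the single-strand binding complex RPA, which coats unwound DNA, had a median log2 difference of 0.12. Rpa2 read 2096, 2898 and 2228 on KO arrays, against 1494, 2121 and 2102 on Het arrays (log2 0.34 ± 0.20, adjusted p = 0.417). The difference was 0.20 without KO B and 0.17 without Het A. A further probe set separated the groups at log2 0.45 (adjusted p = 0.118). Rpa1, the main DNA-binding subunit, read 18111, 18862 and 16848 on KO arrays, against 14911, 18625 and 16252 on Het arrays, with log2 0.12 ± 0.11 (adjusted p = 0.626) and -0.03 by its other probe set. Rpa3, the smallest subunit, read 3029, 4014 and 3022 on KO arrays, against 3018, 3570 and 4377 on Het arrays. It was 1 of 3 negative genes, with log2 -0.12 ± 0.19 (95% confidence interval -0.58 to 0.34, adjusted p = 0.776), and it was 0.018 without Het C.

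The enzymes that join Okazaki fragments, the short pieces of the lagging strand, were positive and overlapped by the chosen probe sets. Fen1, the flap nuclease, read 2325, 2756 and 2147 on KO arrays, against 1391, 2214 and 1948 on Het arrays (log2 0.40 ± 0.20, adjusted p = 0.358). Its other probe set read 1124, 1766 and 1060 on KO arrays, against 541.9, 963.3 and 848.5 on Het arrays. There the groups did not overlap (log2 0.75 ± 0.29, adjusted p = 0.253). Lig1, the DNA ligase, read 2169, 3059 and 2183 on KO arrays, against 950.1, 1860 and 2190 on Het arrays (log2 0.63 ± 0.34, adjusted p = 0.393). Het C read just above KO A and KO C for Lig1, and the difference without Het A was 0.27 for Lig1 and 0.21 for Fen1.

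Genes of nucleotide supply ran from log2 -0.06 for Dut to 1.02 for Tk1 and Rrm2, with a median of 0.79 over 5 genes. Rrm1, the large subunit of ribonucleotide reductase, read 2798, 4682 and 2998 on KO arrays, against 1129, 2814 and 2402 on Het arrays (log2 0.79 ± 0.40, adjusted p = 0.360), and gave 0.39 without Het A. Rrm2, the small subunit whose supply is tied to S phase, read 11101, 13791 and 10710 on KO arrays, against 1967, 10855 and 9258 on Het arrays, and its log2 difference of 1.02 ± 0.67 was 0.23 without Het A. Of all 41 genes Rrm2 showed the widest gap between Het A and the mean of Het B and Het C, a log2 of -2.35. Tk1, thymidine kinase of the salvage route, gave log2 1.02, or 0.42 without Het A. Tyms, thymidylate synthase, read 336.4, 248.2 and 279.8 on KO arrays, against 215.2, 245.9 and 162.8 on Het arrays, with no overlap (log2 0.48 ± 0.19, adjusted p = 0.262). By this probe set its pattern over the arrays was another one, for Het C was lowest and KO A highest. Tyms kept log2 0.51 without Het A by the same probe set. A second tested Tyms probe set read 101.1, 123.7 and 96.78 on KO arrays, against 62.17, 62.13 and 119.3 on Het arrays. There KO B was highest, Het C exceeded KO A and KO C, and the groups overlapped (log2 0.46 by limma, adjusted p = 0.450). Dut read 4777, 6856 and 5325 on KO arrays, against 4272, 6370 and 7231 on Het arrays. Its log2 difference was -0.06 ± 0.24 (95% confidence interval -0.65 to 0.54, adjusted p = 0.919), and both of its probe sets were negative.

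Of the genes of chromatin copying, Chaf1b, a subunit of the CAF-1 complex that sets histones on new DNA, separated the groups. It read 408.2, 724.6 and 446.5 on KO arrays, against 263.9, 306.9 and 343.8 on Het arrays (log2 0.75 ± 0.24, adjusted p = 0.187), and gave 0.65 without Het A and 0.49 without KO B. Uhrf1, which guides the copying of DNA methylation, read 5033, 9491 and 4810 on KO arrays, against 1863, 4613 and 6443 on Het arrays. Het C exceeded KO A and KO C there, and the log2 difference was 0.68 ± 0.53 (adjusted p = 0.545), or 0.17 without Het A and 0.37 without KO B.

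All 4 genes of S phase entry and checkpoint control had every KO array above every Het array, as 13.2% of all genes tested did, with a median log2 difference of 0.85. Ccne1, the cyclin that drives entry into S phase, read 1382, 1784 and 1560 on KO arrays, against 720.7, 969.2 and 1148 on Het arrays (log2 0.75 ± 0.20, adjusted p = 0.126). Its other probe set gave log2 1.12 with adjusted p = 0.091. Ccne2, the related cyclin, had the widest difference of the 41 genes, log2 1.65 ± 0.49 or 3.13-fold. It read 2054, 1892 and 2069 on KO arrays, against 285.7, 935.3 and 980.0 on Het arrays (adjusted p = 0.161). The KO arrays were close together and lay well above the highest Het array, and the log2 difference was 1.07 without Het A (adjusted p = 0.088). Chek1, the kinase that answers stalled forks, read 1007, 1170 and 982.4 on KO arrays, against 372.3, 618.5 and 717.7 on Het arrays (log2 0.94 ± 0.26, adjusted p = 0.138). E2f1, an activating E2F factor, read 350.5, 484.8 and 342.5 on KO arrays, against 228.9, 313.0 and 332.2 on Het arrays, a narrow separation with log2 0.43 ± 0.21 (adjusted p = 0.334), or 0.27 without Het A. Its other probe set read 204.0, 401.0 and 263.3 on KO arrays, against 84.43, 115.2 and 213.2 on Het arrays, with KO A below Het C.

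**Figure D3:**
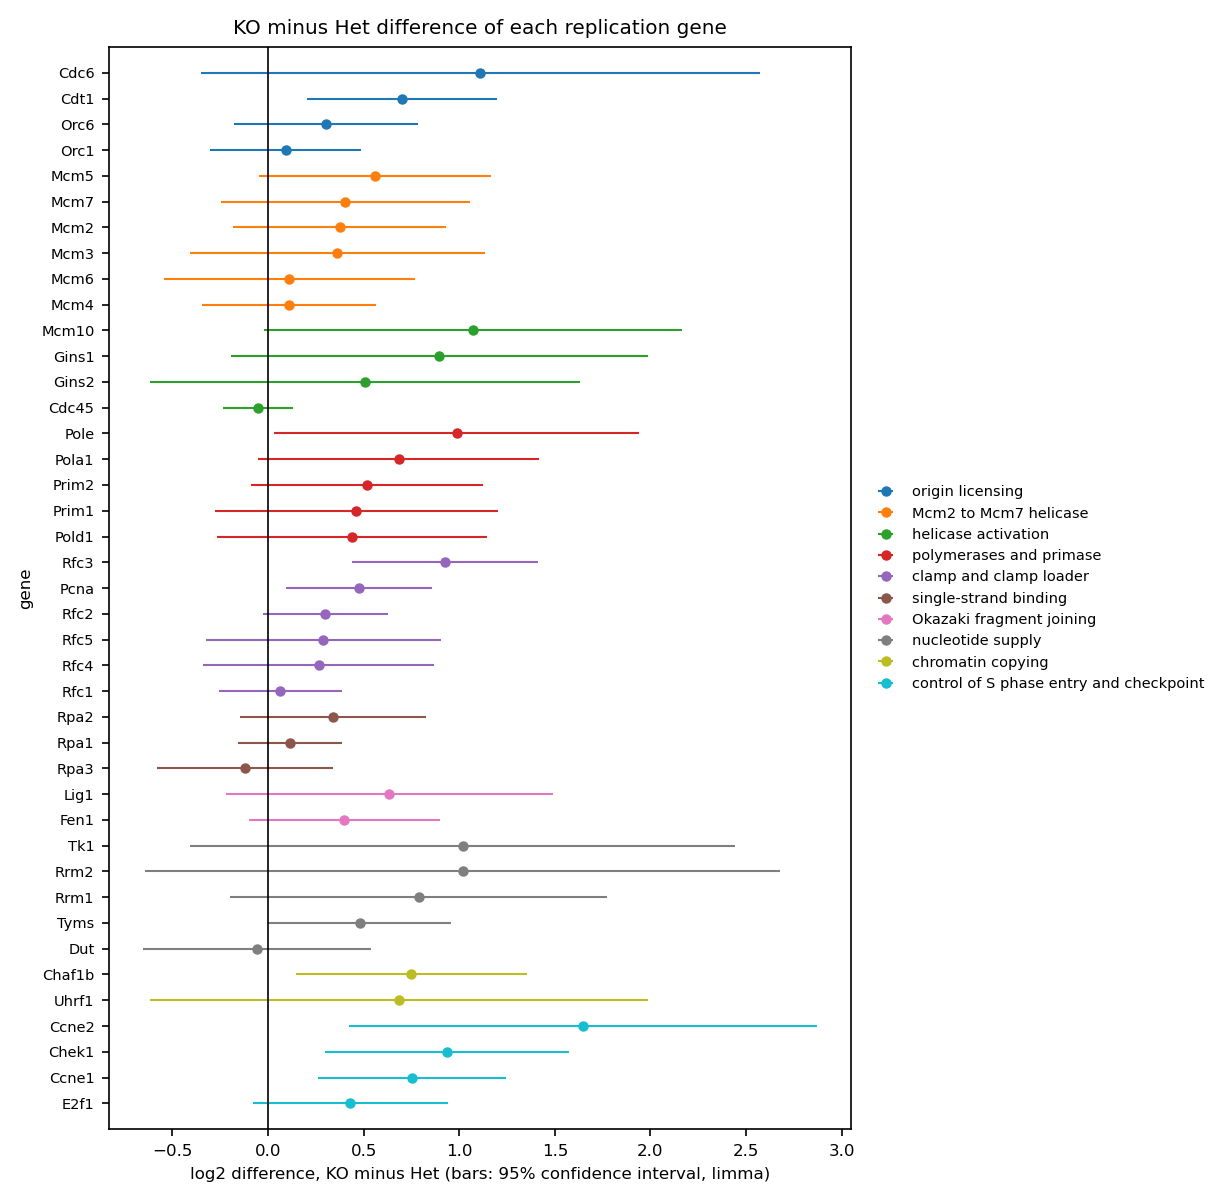
Points give the log2 difference, KO minus Het, of each of the 41 genes and bars its 95% confidence interval from limma, unadjusted for the number of genes, with genes grouped and coloured by role. Cdc45, Rpa3 and Dut lie left of 0, Ccne2 at 1.65 lies farthest right, and the genes of S phase entry and checkpoint control have the highest median of the 10 roles, 0.85.

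The replication genes moved together from array to array within each group as well as between the groups. After each gene was centred on its mean over the 6 arrays, the median of the 41 genes was 0.09, 0.54 and 0.10 on KO arrays A, B and C, against -0.69, -0.05 and 0.02 on Het arrays A, B and C. KO B was thus high, Het A low, and the remaining 4 arrays lay between -0.05 and 0.10. Het A was the lowest of the 6 arrays for 38 of the 41 genes (17.3% of all genes tested), and KO B the highest for 32 (24.5% of all genes tested). Relative to the mean of Het B and Het C, Het A was lower for 39 genes, by a median log2 of -0.65. Relative to the mean of KO A and KO C, KO B was higher for 38 genes, by a median of 0.42 and by at most 1.18, for Gins2. The median SD between the arrays of a group was 0.25 in KO and 0.38 in Het on the log2 scale, and 0.12 in Het without Het A. Over all genes tested it was 0.15 in KO and 0.14 in Het.

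**Figure D4:**
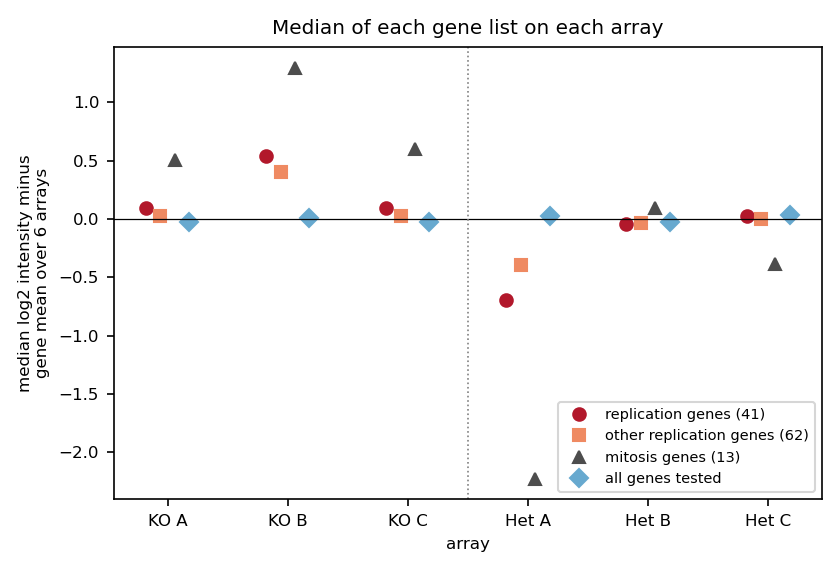
For each array, with the KO arrays left of the Het arrays, points give the median over a gene list of the log2 intensity minus the gene's mean over the 6 arrays. Replication, other replication and mitosis genes are lowest on Het A and highest on KO B, while the median of all genes tested stays near 0 on every array.

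Leaving out Het A kept 35 of 41 differences positive and 6 negative, with 0 genes past the test and 6 higher at an unadjusted p under 0.05, where 8.22% of all genes tested were. The median was then 0.23, and Ccne2 at 1.07, Rfc3 at 0.78, Chek1 at 0.66 and Chaf1b at 0.65 stood highest. Rrm2, Cdc6, Tk1 and Ccne2 had the widest shifts between the fits. Without KO B, 36 were positive, with a median of 0.30 and 7 higher at an unadjusted p under 0.05, where 8.43% of all genes tested were.

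**Figure D5:**
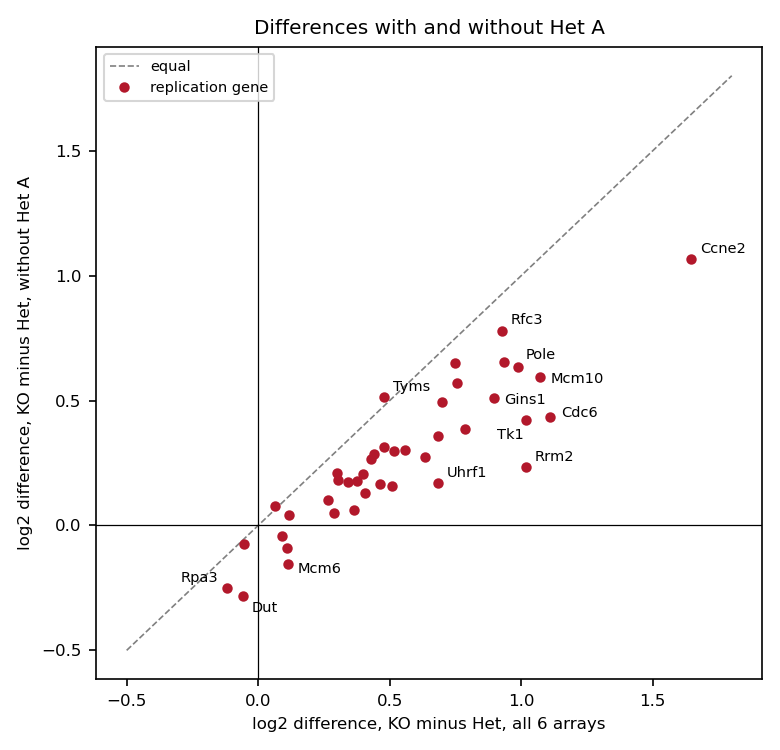
Each point is 1 of the 41 genes, with its log2 difference KO minus Het over all 6 arrays on the horizontal axis and without Het A on the vertical axis; the dashed line marks equal values and the genes named are a selection. All points but Tyms and Rfc1 lie below the line; Ccne2 at 1.07 and Rfc3 at 0.78 stay highest without Het A, and Rrm2 drops to 0.23.

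Several probe sets were on hand for many of the genes. Of the 82 tested probe sets of the replication genes, 74 were higher and 8 lower in KO, and 0 passed the test. Among the 30 genes with several tested probe sets, all were positive for 25 genes and all negative for 1, Dut. The signs were mixed for 4, namely Cdc45, Chek1, Rfc2 and Rpa1. For Chek1 the negative probe set was a dim one, at 16.96, 16.29 and 14.96 on KO arrays and 17.90, 13.07 and 20.96 on Het arrays.

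Other genes of DNA replication, 62 of 64 of which were tested, were higher in KO for 43 and lower for 19, with 0 past the test in either direction and a median log2 difference of 0.29. At an unadjusted p under 0.05, 13 were higher and 3 lower (10.7% and 11.6% of all genes tested), and all KO arrays lay above all Het arrays for 21 and below them for 5 (13.2% and 16.8% of all genes tested). The 13 higher became 3 without KO B, 7 without KO C and 4 without both B arrays. At that p, 8.43%, 8.25% and 7.69% of all genes tested were higher in those fits, in that order. The median of these other replication genes became 0.16 without KO B, without Het A or without both B arrays. Dna2, a nuclease and helicase of Okazaki fragment processing, had the smallest p. It read 899.9, 1512 and 989.2 on KO arrays, against 217.5, 397.2 and 493.9 on Het arrays (log2 1.66 ± 0.36, adjusted p = 0.087). Supt16, a subunit of the histone chaperone FACT, read 2610, 2766 and 2455 on KO arrays, against 1618, 2111 and 1774 on Het arrays (log2 0.52 ± 0.12, adjusted p = 0.104). Dtl, which directs the destruction of Cdt1 on PCNA, gave log2 1.23 ± 0.36 (adjusted p = 0.153). Rrm2b, the p53-dependent subunit of ribonucleotide reductase used outside S phase, ran the other way. It read 1406, 1438 and 1264 on KO arrays, against 2050, 1827 and 1639 on Het arrays, with no overlap (log2 -0.42 ± 0.11, adjusted p = 0.131), so the subunits Rrm2 and Rrm2b had differences of opposite sign.

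Genes of mitosis, which act after replication, differed by more on the log2 scale. Of 13 tested, 12 were positive, 12 separated the groups, 8 were higher at an unadjusted p under 0.05 and 0 passed the test, and the median was 1.71. Of all genes tested, 13.2% separated the groups in that direction and 10.7% were higher at that p. With any 1 array left out, 8.22% (without Het A) to 10.9% (without KO A) of all genes tested were higher at that p. The median of the mitosis genes was 1.04 without Het A, and the 8 became 6 there. The 8 became 0 without KO B, 2 without KO A or KO C, 3 without Het C and 12 without Het B. Their medians per array were 0.51, 1.30 and 0.60 on KO arrays A, B and C, against -2.23, 0.09 and -0.39 on Het arrays A, B and C, with the same low and high arrays as the replication genes. Of 9 genes that restrain the cell cycle, only Cdkn1a, which codes for the inhibitor p21 that also binds PCNA, passed the test over all 6 arrays and rose in KO cells. It read 661.3, 646.3 and 1017 on KO arrays, against 131.0, 236.5 and 180.5 on Het arrays (log2 2.09 ± 0.28, adjusted p = 0.037). The adjusted p was 0.076 (without KO B) to 0.119 (without Het C) when any 1 array was left out, with log2 differences of 1.87 (without Het A) to 2.30 (without Het B). Cdkn2d, a kinase inhibitor, read 6248, 5894 and 6058 on KO arrays, against 3466, 3720 and 4404 on Het arrays (log2 0.66 ± 0.11, adjusted p = 0.055).

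Markers of other cells varied over the same arrays. The summed intensity of CD8 T and NK cell markers, 5 of 7 of them tested, was 2756, 10038 and 2301 on KO arrays A, B and C, against 1969, 4050 and 2092 on Het arrays A, B and C. That of B cell markers, 5 of 8 tested, was 965, 2197 and 867 on KO arrays, against 635, 2017 and 691 on Het arrays. Myeloid markers, 3 of 6 tested, summed to 455, 1707 and 679 on KO arrays, against 280, 600 and 322 on Het arrays. Plasma cell markers, 5 of 6 tested, summed to 4500, 9343 and 7341 on KO arrays, against 3725, 5077 and 5356 on Het arrays. Most of that sum is Prdm1 and Irf4, which T cells also express. Jchain, the joining chain of secreted antibodies, read 388.8, 3197 and 2623 on KO arrays, against 11.46, 163.1 and 13.59 on Het arrays, with no overlap (log2 5.66 ± 1.32, adjusted p = 0.101). Mzb1, a chaperone of antibody-secreting cells, read 79.14, 379.3 and 356.5 on KO arrays, against 64.51, 84.55 and 63.13 on Het arrays (log2 1.65 ± 0.63, adjusted p = 0.243, or 0.031 without KO A). Both were highest on KO B and KO C, whereas Sdc1, a surface marker of plasma cells, read 72.61, 72.24 and 72.38 on KO arrays, against 75.65, 80.62 and 74.89 on Het arrays. KO B had the highest and Het A the lowest sum in all 4 lists, as with the replication genes. Single tested markers varied more. Het A was the lowest array for 2 of 5 CD8 T and NK, 4 of 5 B cell, 1 of 3 myeloid and 2 of 5 plasma cell markers. KO B was the highest for 5 of 5, 3 of 5, 3 of 3 and 3 of 5. Much of the CD8 T and NK sum was Nkg7. It read 1943, 3895 and 1527 on KO arrays, against 938.5, 1176 and 1306 on Het arrays. The part of these cells in the replication values was not tested. In the sums of the CD8 T and NK, B cell and myeloid lists, Het B stood above Het A and Het C as KO B stood above KO A and KO C. Most of the myeloid sum on the B arrays was Lyz2. It read 231.6, 1408 and 440.8 on KO arrays, against 50.60, 381.4 and 97.37 on Het arrays. Not every marker followed the sums, for Csf1r and Klrk1 were lowest on Het B among the Het arrays. Nkg7 was lower on Het B than on Het C. Ms4a1, which codes for the B cell protein CD20, read 122.4, 716.9 and 117.4 on KO arrays, against 37.42, 523.6 and 48.14 on Het arrays. Germinal centre B cell markers, 2 of 4 tested, ran otherwise, at 1912, 1817 and 2077 on KO arrays, against 2144, 1404 and 2086 on Het arrays, and nearly all of that sum is Fas, which T cells also express. The other tested marker, Mybl1, passed the test over all 6 arrays and rose in KO cells. It read 223.7, 144.8 and 186.5 on KO arrays, against 45.02, 65.64 and 75.00 on Het arrays (log2 1.59 ± 0.25, adjusted p = 0.049), and its adjusted p was 0.076 (without KO B) to 0.147 (without KO C) when any 1 array was left out. Sums of the T cell markers, 8 of 8 tested, were 138399, 135644 and 145394 on KO arrays, against 134196, 144820 and 140538 on Het arrays. Ctla4 and Il2ra read higher on every KO array (log2 0.76 and 0.67, adjusted p = 0.069 and 0.244 by limma). Cd3d, Cd3g and Ikzf2 read lower on every KO array (log2 -0.23, -0.17 and -0.24, adjusted p = 0.200, 0.318 and 0.342). The groups were separate in these directions for 13.2% (higher) and 16.8% (lower) of all genes tested. Pax5, Cr2, Gcsam, Tnfrsf17, Ncr1, Itgam, Cd14 and Itgax, which define several of these cell types, were too dim to be tested, as were all 4 erythroid markers measured. The ratio of the 3' to the 5' beta-actin control, which reads RNA length, was 1.41 on KO A and 2.15 on KO B, against 1.70 on Het A and 1.93 on Het C, with KO C and Het B between KO A and Het A. It was highest on KO B, but not lowest on Het A, and its part was not tested either. Without both B arrays, 37 of the 41 replication genes were positive, with a median of 0.43 and 5 higher at an unadjusted p under 0.05. Of all genes tested in that fit, 37.7% were positive and 7.69% were higher at that p.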

How the data were processed

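Per the labels' protocols, total RNA came from TRIzol extraction, and the MessageAmp II kit gave the biotin-labelled aRNA. The values are the intensity of each probe set as deposited by the authors, GCRMA normalized per the labels with software whose version was not given in the sources used here. GCRMA subtracts a background modelled on probe sequence, so differences of dim probe sets are less certain. The values run from 1.23 to 170023, a linear scale, and log2 was taken.

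Of 45101 probe sets, 64 controls and 1 with a missing value were left out, and 29507 with log2 above 4 on at least 3 of 6 arrays were tested with limma 3.58.1 in R 4.3.3 (lmFit, eBayes, two-sided, no covariates, Benjamini-Hochberg adjustment, threshold 0.05). Of the probe sets 34944 had 1 symbol, 932 several and 9160 none. The platform's annotation can be old; 34740 of the single-symbol probe sets matched a reference gene table and 0 symbols changed. Genes, gene lists and tests were chosen with earlier results of these data known. Values of every array are given, by rule, for the 2 genes of smallest p in each role and for negative genes. They are also given for the 4 other replication genes of smallest p (for Dtl only its difference). Those of Rrm2, Ccne2 and E2f1 and of second probe sets were added after their values were seen. So were those of Cdkn1a, Cdkn2d, Jchain, Mzb1, Sdc1, Mybl1, Ms4a1, Nkg7 and Lyz2, and the differences of Ctla4, Il2ra, Cd3d, Cd3g and Ikzf2. Het and KO arrays were compared without pairing. Alternatives were leaving out each array or both B arrays, a replicate block, 2 other filters, median centring, quantile normalization, array weights, an intensity trend, and averaging all probe sets of a gene. The steps were tested on simulated data. Median intensities were 58.1 to 61.5 per array, and 3 arrays per group limit the precision. Promoter windows came from RefSeq (GRCm38.p6), matched by symbol. Plots used matplotlib 3.10.9 in Python 3.11.15.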

Additional observations from a re-analysis of the deposited data

How the results depend on the processing

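No replication gene passed the test under any alternative run, each by limma, and 35 to 40 of 41 were positive, against 38; 34 were positive under every alternative. The 525 probe sets called among 29507 were 0 to 176 when 1 array was left out, 0 without both B arrays, 957 with array weights and 0 with the replicate block, where 5365 probe sets had an unadjusted p under 0.05 (5630 without the block). The replicate block raised the replication genes higher in KO at an unadjusted p under 0.05 to 14, against 9, and changed no call among them. At that p, 10.9% of all genes tested were higher with the block, against 10.7% without it. The letters were not taken to pair the samples, since same-letter arrays did not all vary alike. Deviations from the group mean correlated at 0.28, -0.17 and 0.01 between KO and Het arrays of the same letter. Between KO and Het arrays of different letters they correlated at -0.45 to 0.37. Both B arrays were nonetheless high in B cell and CD8 T cell markers. With all probe sets of a gene averaged, 1 other replication gene, Dna2, was called, against 0. The cause of these shifts was not tested. The sign turned for Rfc1 with array weights (-0.010) and without both B arrays (-0.11), and for Cdc45 with the mean of its probe sets (0.56). Leaving out 1 array at a time gave -0.28 to 0.10 for Dut, -0.16 to 0.26 for Mcm6, -0.058 to 0.14 for Rfc1, -0.044 to 0.22 for Orc1, -0.091 to 0.22 for Mcm4, -0.26 to 0.018 for Rpa3 and -0.094 to 0.026 for Dicer1. Cdkn1a also missed the threshold with the replicate block (adjusted p = 0.102), with no filter (0.053) and without both B arrays (0.146), and Mybl1 with the block (0.139), with no filter (0.067), with all its probe sets averaged (0.077) and without both B arrays (0.157). The median log2 difference, 0.48, ran from 0.23 (without Het A) to 0.57.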
